A study of Mus musculus with 27 samples.

Results

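The values are those of Mest, Sfrp5, Npr3, Cav1 and Cav2, a small set of genes tied to the enlargement of fat cells and to caveolae, in epididymal adipose tissue (EAT), the fat pad beside the epididymis, of mice on 3 diets. The genes were chosen by name, 6 in number, and were matched by symbol to the annotation of the array. Of the 6 genes, 5 were matched among the 18193 genes measured. Bmp3, a member of the bone morphogenetic protein (BMP) family, was not matched and was not analysed here. Male C57BL/6J mice, 5 weeks old on arrival and kept for 1 week on a standard diet, were then fed for 18 weeks, housed 3 to a cage. A total of 9 mice received AIN93G, a purified diet (control). Another 9 received a Western diet with 39.9% of its energy from fat (20% butter, 1% soy oil and 0.15% cholesterol) and 34.0% from sucrose (Western). The last 9 received the Western diet with 0.05% quercetin, a plant flavonol (quercetin). Each mouse gave 1 Affymetrix array, on which a probe set is a group of short probes near the 3' end of a transcript. Mice that shared a cage are not given, so the spread between mice may include shared cages.

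White fat grows in obesity mainly as existing fat cells take up lipid and enlarge, and some transcripts of the fat cell follow that enlargement. Mest, also called Peg1, is an imprinted gene expressed from the paternal copy, and it encodes a membrane protein of the hydrolase fold that is known to track fat cell size. Sfrp5 encodes a secreted frizzled-related protein that binds Wnt ligands outside the cell and is made by fat cells. Npr3 encodes the clearance receptor that removes natriuretic peptides, which otherwise stimulate lipolysis through a guanylyl cyclase receptor. Cav1 and Cav2 encode caveolins, membrane proteins of caveolae, the small pits that cover much of the fat cell surface. Caveolins are also abundant in endothelial cells.

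The start regions of Mest and Sfrp5 are shown because they belong to the genes that differed between diets, and those of Cav1 and Cav2 because the caveolin genes are neighbours. Each sequence runs 5′ to 3′ over 300 bases around a RefSeq start, most of them upstream, on build GRCm38.p6. Capitals mark 3 short motifs on either strand, namely the CCAAT box (CCAAT), the GC box (GGGCGG) and the TATA box (TATAAA).
Mest, first start, chr6:30733256-30733555, plus strand: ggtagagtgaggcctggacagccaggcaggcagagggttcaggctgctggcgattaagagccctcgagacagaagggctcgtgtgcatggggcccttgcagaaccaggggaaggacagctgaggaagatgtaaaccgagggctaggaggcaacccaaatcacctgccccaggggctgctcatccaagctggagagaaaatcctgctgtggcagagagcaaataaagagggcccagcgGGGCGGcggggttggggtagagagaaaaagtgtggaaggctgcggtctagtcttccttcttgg
Mest, second start, chr6:30737800-30738099, plus strand: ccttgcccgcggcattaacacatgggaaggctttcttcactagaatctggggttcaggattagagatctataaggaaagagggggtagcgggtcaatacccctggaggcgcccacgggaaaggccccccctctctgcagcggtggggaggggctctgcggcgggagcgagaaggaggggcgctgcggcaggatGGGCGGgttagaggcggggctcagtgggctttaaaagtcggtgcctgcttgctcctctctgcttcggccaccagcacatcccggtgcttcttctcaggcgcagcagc
Sfrp5, chr19:42202203-42202502, minus strand: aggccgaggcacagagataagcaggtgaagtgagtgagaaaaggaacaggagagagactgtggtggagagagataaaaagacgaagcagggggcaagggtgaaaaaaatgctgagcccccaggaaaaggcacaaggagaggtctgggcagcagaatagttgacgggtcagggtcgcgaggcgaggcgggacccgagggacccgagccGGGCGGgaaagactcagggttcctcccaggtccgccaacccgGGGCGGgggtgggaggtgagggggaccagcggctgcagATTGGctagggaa
Cav1, first start, chr6:17306085-17306384, plus strand: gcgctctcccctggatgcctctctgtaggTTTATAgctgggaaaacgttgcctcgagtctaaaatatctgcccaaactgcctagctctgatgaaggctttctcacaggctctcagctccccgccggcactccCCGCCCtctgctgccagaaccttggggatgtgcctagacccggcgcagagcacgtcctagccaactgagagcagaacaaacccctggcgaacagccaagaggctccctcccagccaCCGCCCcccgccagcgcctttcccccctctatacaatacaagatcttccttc
Cav2, chr6:17280935-17281234, plus strand: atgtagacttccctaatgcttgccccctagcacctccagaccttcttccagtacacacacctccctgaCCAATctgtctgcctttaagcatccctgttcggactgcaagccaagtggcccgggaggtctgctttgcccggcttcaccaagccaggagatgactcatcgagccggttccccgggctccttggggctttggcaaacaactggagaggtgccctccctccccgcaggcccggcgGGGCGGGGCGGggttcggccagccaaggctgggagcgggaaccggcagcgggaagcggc

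Both Mest regions held 1 GC box each, the Sfrp5 region held 2 GC boxes and 1 CCAAT box, and the Cav2 region held 2 overlapping GC boxes and 1 CCAAT box. The Cav1 region shown held 2 GC boxes and 1 TATA box, whereas the region of a second Cav1 start, chr6:17307390-17307689, held none of the 3 motifs. Another Mest start (chr6:30737803-30738102) lies beside the second Mest start and is likewise not printed. Over all 32851 such regions of the mouse, 35.7% held a GC box, 37.4% a CCAAT box and 13.6% a TATA box, so these letters are common. Neither the C/EBP palindrome TTGCGCAA (0.183% of regions) nor the TCF/LEF motif CTTTGAA (5.14%), searched on both strands, lay in any of the 8 windows of the 5 genes. The G and C content was 59.3% and 62.7% for the Mest regions shown, 61.3% for Sfrp5, 59.3% for Cav1 and 64.3% for Cav2, above the median of 52.7% over all regions, and 39.0% for Npr3. Cav2 and Cav1 lie next to each other on chromosome 6, with 17204 bases between them. The arrays did not read start sites, so no value here says which start was used.

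The arrays differed in quality before any comparison, and this touches the genes below. The deposited signals did not share a common median, with medians per array from 25.1 to 54.3, and were normalised by quantiles, floored at 1 and converted to log2. The labels name EAT as the tissue, although their extraction text speaks of liver. The fat cell markers were high on every array (Adipoq 13.29 to 13.54 and Fabp4 13.71 to 13.85 in log2 signal), and the mean of 10 fat cell markers was 11.69 to 12.27 in control mice, 11.97 to 12.25 in Western mice and 12.02 to 12.30 with quercetin. The mean of 7 liver markers ran from 3.96 to 11.78 over all arrays. On 8 arrays, markers of testis, lymph node or smooth muscle lay more than 2 log2 units above the median, namely control replicates 2, 3, 4, 6 and 9, Western replicate 7 and quercetin replicates 3 and 5. By the same measure 9 arrays were high in liver markers, namely control replicates 1 and 4, Western replicates 1, 4, 5 and 6 and quercetin replicates 2, 5 and 8, and control replicates 1, 4 and 5 were high in mesothelial markers. Of these, control replicate 4 and quercetin replicate 5 were among the 8. The fits without the arrays high in liver or mesothelial markers were chosen after seeing the data. The 3' to 5' log2 ratio of the actin control probe sets, a measure of RNA integrity, averaged 1.11 ± 0.29 in control mice, 0.79 ± 0.12 in Western mice and 1.14 ± 0.19 with quercetin (SD, n = 9). It was lower in Western mice than in control mice (difference -0.33, exact two-sided permutation p = 0.0036) and higher with quercetin than without (0.35, p = 1.2e-04, exact two-sided permutation test). For the Gapdh control probe sets these differences were -0.19 (exact two-sided permutation p = 0.055) and 0.24 (exact two-sided permutation p = 0.0070). As the actin ratio differed between diets, fits with it as a covariate cannot tell RNA quality from diet.

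Mest and Sfrp5 were higher in EAT in Western mice than in control mice, by 2.77-fold and 2.50-fold, whereas Npr3, Cav1 and Cav2 did not pass the test. With quercetin, none of the 5 genes passed the test against the Western diet. The test was that of limma on the 27 arrays, with p-values adjusted by Benjamini and Hochberg over the 18193 genes and a threshold of 0.05. As background, 11.3% of all genes were higher and 6.44% lower in Western mice than in control mice. Of the 5 genes, 2 were higher and 0 lower. With quercetin against the Western diet 0.253% of genes were higher and 0.0770% lower, and against the control diet 5.00% were higher and 1.65% lower. Over the 3 diets together, 16% of genes passed limma's F test, and among the 5 genes Mest did (adjusted p = 0.0026) but Sfrp5 did not (0.073).

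**Figure D1:**
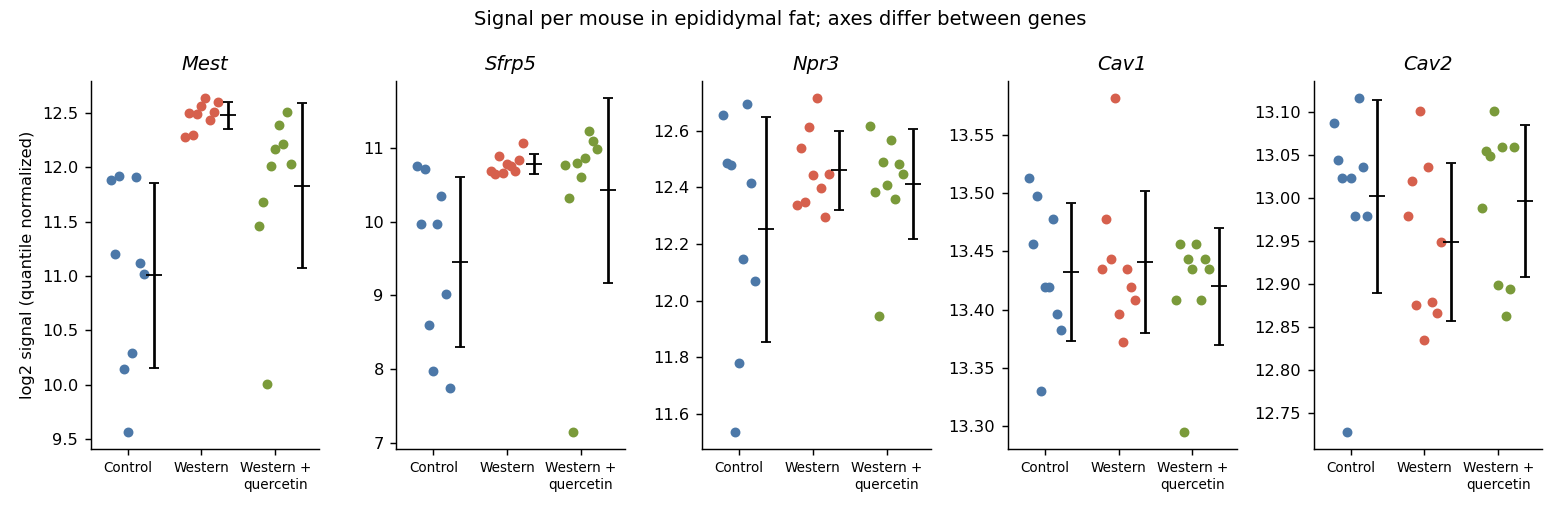
Log2 signal (y axis, quantile normalised, with its own range for each gene) of Mest, Sfrp5, Npr3, Cav1 and Cav2 by diet (x axis). Each point is 1 mouse, and the black line and bar give the mean ± SD (n = 9). For Mest, the Western mice lie between 12.28 and 12.64 and all control mice lie at 11.92 or below.

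Mest had a log2 signal with a lowest value of 9.57, a median of 11.12 and a highest value of 11.92 in control mice. In Western mice these values were 12.28, 12.50 and 12.64, and with quercetin 10.01, 12.04 and 12.51. All 9 Western mice lay above all 9 control mice, with a gap of 0.36 between the groups, an order that 0.951% of all genes showed. Of the quercetin mice, 7 lay below every Western mouse and 6 lay above every control mouse, so that the group spread across the gap and into the range of both others. The mean was 11.01 ± 0.85 in control mice, 12.48 ± 0.12 in Western mice and 11.83 ± 0.76 with quercetin (SD, n = 9). In Western mice Mest was higher than in control mice by 1.47 on the log2 scale (95% interval 0.88 to 2.07, limma adjusted p = 7.1e-04). With the actin 3' to 5' ratio as a covariate it was 1.35 (limma adjusted p = 0.018), and without the 8 arrays high in testis, lymph node or smooth muscle markers it was 1.36 (limma adjusted p = 0.0037). Without the 9 arrays high in liver markers it was 1.46 (limma adjusted p = 0.024), and without the 3 high in mesothelial markers 1.23 (limma adjusted p = 0.0032). Without all 16 arrays high in any of these markers, which left 2 control, 4 Western and 5 quercetin mice, it was 0.96 (limma adjusted p = 0.027). Against the Western diet, quercetin gave a log2 difference of -0.65 (-1.24 to -0.05), with an unadjusted p of 0.034 and an adjusted p of 0.31 from limma. Against the control diet, quercetin gave 0.82 (0.23 to 1.42, limma adjusted p = 0.085). The latter passed without quercetin replicate 3 (1.05, limma adjusted p = 0.0090) and without control replicate 1 or 3 (0.93 and 0.94).

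Sfrp5 spread widely in 2 of the diets. In control mice its log2 signal had a lowest value of 7.75, a median of 9.96 and a highest value of 10.76. In Western mice these values were 10.65, 10.75 and 11.06. With quercetin they were 7.15, 10.80 and 11.23, and the value of 7.15 belonged to replicate 3, the lowest of all 27 mice. The groups overlapped at the top of the control range: 4 of 9 Western mice lay above every control mouse and 7 of 9 control mice lay below every Western mouse. The means were 9.46 ± 1.15, 10.78 ± 0.13 and 10.42 ± 1.26 (SD, n = 9) in the same order of diets. The Western diet gave a log2 difference from control of 1.32 (0.43 to 2.21, limma adjusted p = 0.033), and a second, dimmer probe set of Sfrp5 gave 1.25 (limma adjusted p = 0.027 over all probe sets).

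This rise of Sfrp5 was close to the threshold. It no longer passed with the actin 3' to 5' ratio as a covariate (0.77, limma adjusted p = 0.36), with the test named in the study's methods (adjusted p = 0.096), without normalisation (1.34, limma adjusted p = 0.052) or with a floor of 32 (limma adjusted p = 0.051). Sfrp5 also lost the call without control replicate 4, 5, 8 or 9 (1.21, 1.14, 1.27 and 1.11) or Western replicate 3 or 9 (1.31 and 1.28). Without the 9 arrays high in liver markers it was 1.43 (limma adjusted p = 0.17) and without the 3 high in mesothelial markers 1.15 (limma adjusted p = 0.093), and neither passed. Without the 8 arrays high in testis, lymph node or smooth muscle markers it was 1.26 and passed (limma adjusted p = 0.011), as it did without all 16 (1.17, limma adjusted p = 0.019). Quercetin gave -0.35 against the Western diet (-1.24 to 0.53, limma adjusted p = 0.80), and without quercetin replicate 3 the difference was 0.06. Against the control diet quercetin gave 0.97 (limma adjusted p = 0.18), and 1.38 without quercetin replicate 3 (limma adjusted p = 0.0081).

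Npr3 showed no difference past the test. Its log2 signal had a lowest value of 11.54, a median of 12.42 and a highest value of 12.69 in control mice, 12.29, 12.44 and 12.72 in Western mice, and 11.95, 12.45 and 12.62 with quercetin. The medians of the 3 diets lay close together, while 4 of 9 control mice lay below every Western mouse. The Western diet gave 0.21 against control (-0.04 to 0.46, limma adjusted p = 0.25), quercetin gave -0.05 against the Western diet (-0.30 to 0.20, adjusted p = 0.92) and 0.16 against control (adjusted p = 0.48). Of the other probe sets of Npr3, 1 gave 0.27 and another 0.43 for the Western diet (limma adjusted p = 0.27 and 0.14).

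After quantile normalisation, the caveolins stayed within narrow ranges. Cav1 had log2 signals of 13.33 to 13.51 (median 13.42) in control mice, 13.37 to 13.58 (13.43) in Western mice and 13.29 to 13.46 (13.43) with quercetin. Cav2 had 12.73 to 13.12 (median 13.02), 12.83 to 13.10 (12.95) and 12.86 to 13.10 (13.05). The 3 diets overlapped almost fully for both genes. For the Western diet against control, the fold change of Cav1 was 1.01 with a 95% interval of 0.948 to 1.07 (limma adjusted p = 0.92), and that of Cav2 was 0.964, with 0.893 to 1.04 (adjusted p = 0.55). With quercetin against the Western diet, Cav1 gave 0.986 (0.929 to 1.05) and Cav2 1.03 (0.958 to 1.12), with limma adjusted p of 0.90 and 0.78. The signs of these small differences turned with the scaling, and a dimmer probe set of Cav2 gave a log2 difference of -0.18 for the Western diet (limma adjusted p = 0.42).

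Both caveolin probe sets were among the brightest on the arrays. Cav1 ranked between 7 and 25 of 45037 probe sets, at 64.6 to 86.7% of the brightest signal of its array, and Cav2 ranked between 52 and 149, at 43.2 to 62.0%. Quantile normalisation gives a rank the same value on every array. Ranks that stay this near the top can therefore take only a narrow range of normalised values, which also narrows the intervals and SDs. The deposited Cav1 signals ran from 10306 to 12687 in control, 9867 to 12884 in Western and 10154 to 12791 in quercetin mice. How far the normalisation hid differences of the caveolins was not tested. Whether signals stay proportional to RNA at this brightness was not tested either. In whole tissue, fewer cells of a type and less RNA per cell cannot be told apart.

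**Figure D2:**
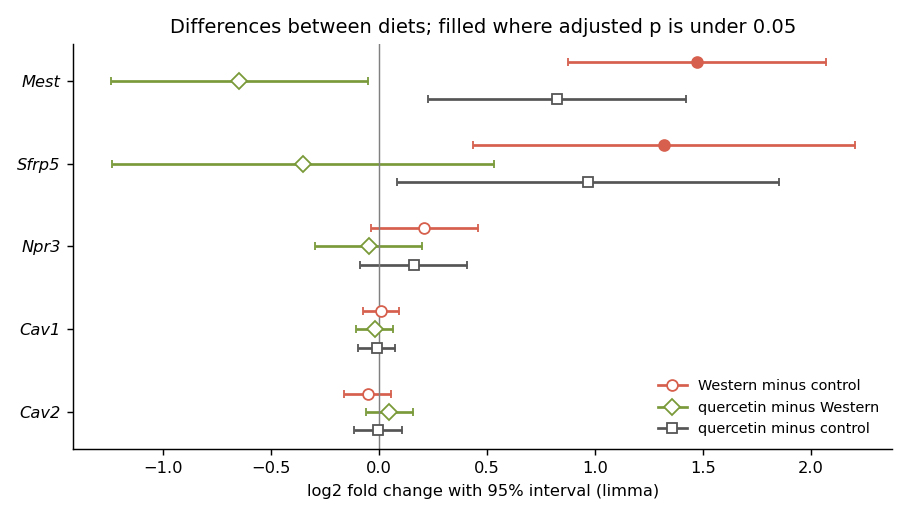
Log2 fold change (x axis) of the 5 genes (y axis) for Western minus control (circles), quercetin minus Western (diamonds) and quercetin minus control (squares), with 95% intervals from limma. Filled symbols passed an adjusted p of 0.05: these are Mest (1.47) and Sfrp5 (1.32) for Western minus control.

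The genes also differed in how much mice of 1 diet varied. The SD of Mest was 6.83 times as large in control mice as in Western mice, and that of Sfrp5 8.59 times, ratios above those of 99.3% and 99.7% of all genes, whose median was 1.55. With quercetin the SD was 6.07 times and 9.36 times that of the Western diet for Mest and Sfrp5, against a median of 1.08 over all genes. For Npr3 the ratio of control to Western SD was 2.87, for Cav2 1.23 and for Cav1 0.973. The ratio of Npr3 rested on the probe set used, its brightest. Of its dimmer probe sets, 1 had SDs of 0.531 in control, 0.0616 in Western and 0.270 in quercetin mice. Another had 0.649, 0.288 and 0.288. The 9 Western mice sat close together for Mest and Sfrp5. For Sfrp5, 2 of 9 control mice lay within the Western range and the others below it, and for Mest all control mice lay below it. The quercetin ratios rested in large part on replicate 3: without it, a choice made after seeing the data, they were 2.80 for Mest and 2.11 for Sfrp5, that of Cav1 went from 0.825 to 0.313, and that of Npr3 from above 1 to 0.647. Without the 8 arrays high in testis, lymph node or smooth muscle markers, which left 4 control mice, the control ratios of Mest and Sfrp5 were 8.32 and 9.15, that of Npr3 was 2.89 and that of Cav2 was 0.464. These differences in spread were not tested.

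Over all diets, mice low in Mest, Sfrp5 or Npr3 tended to be low in the others. This did not hold for each pair within the Western diet or, by rank, within the quercetin diet. Over the 27 arrays with the mean of each diet removed, r between Mest and Sfrp5 was 0.81, between Mest and Npr3 0.80 and between Sfrp5 and Npr3 0.71, and without quercetin replicate 3 these were 0.69, 0.77 and 0.68. For Cav1 and Cav2 r was 0.50, for Mest and Cav2 0.17 and for Sfrp5 and Cav2 0.07. The value for Cav1 and Cav2 depended on the scaling. It was 0.95 when arrays were shifted to one common median and quantiles were not used. Within Western mice alone, r was 0.23 for Mest and Sfrp5, 0.61 for Mest and Npr3 and -0.29 for Sfrp5 and Npr3. Within quercetin mice, Sfrp5 and Npr3 had r = 0.88 but a Spearman's rho of 0.23, with r = -0.38 without replicates 2 and 3. For Mest and Npr3 these were 0.78 and 0.20, with r = 0.50 without replicates 1 and 3. These values describe arrays that share the normalisation and RNA quality.

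**Figure D3:**
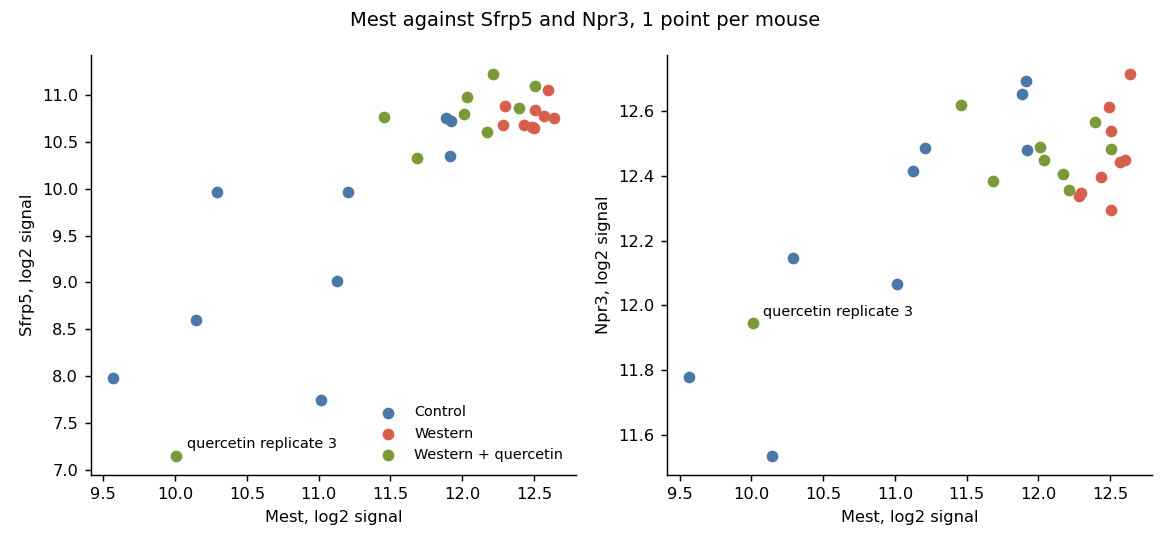
Log2 signal of Sfrp5 (left) and Npr3 (right) against that of Mest, with 1 point per mouse coloured by diet. Western mice gather at Mest values above 12.28, control mice extend down to 9.57, and quercetin replicate 3 (Mest 10.01, Sfrp5 7.15, Npr3 11.95) is low in all 3 genes and below every control mouse for Sfrp5.

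Within each diet, 60 relations of the genes with each other and with the fat cell and macrophage marker means (z-scores) were tested by exact two-sided permutation over 9 mice. After Benjamini-Hochberg adjustment over the 60, 8 passed by Pearson's r and 6 by Spearman's rho. In control mice, Mest rose with Npr3 (r = 0.88, exact permutation p = 0.0017, adjusted 0.021), with rho = 0.87 (exact p = 0.0045, adjusted 0.045) and with r = 0.82 without the 2 mice farthest out in Mest. Npr3 rose with Cav2 (r = 0.83, exact permutation p = 0.0016, adjusted 0.021), with rho = 0.90 (exact p = 0.0019, adjusted 0.042) and with r = 0.95 without 2 mice. Cav1 and Cav2 passed by r (0.80, exact permutation p = 0.0039, adjusted 0.039) and not by rho (0.73, exact p = 0.028, adjusted 0.11), with r = 0.58 without 2 mice. Npr3 and Cav1 likewise passed by r (0.83, exact permutation p = 0.0055, adjusted 0.041) and not by rho (0.82, exact p = 0.0093, adjusted 0.062), with r = 0.81 without 2 mice. Sfrp5 and Cav1 passed by rho (0.90, exact permutation p = 0.0021, adjusted 0.042) and not by r (0.81, exact p = 0.0098, adjusted 0.059). Mest and Sfrp5 passed by neither, with r = 0.72 (exact permutation p = 0.034, adjusted 0.11) and rho = 0.82 (exact p = 0.011, adjusted 0.065).

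In Western mice the relations that passed were with the marker means. Npr3 was lower in mice with higher macrophage markers (r = -0.93, exact permutation p = 6.8e-04, adjusted 0.020), with rho = -0.93 (exact p = 7.5e-04, adjusted 0.042) and with r = -0.90 without 2 mice. Cav2 showed this by r (-0.89, exact permutation p = 0.0015, adjusted 0.021) and not by rho (-0.80, exact p = 0.014, adjusted 0.069), with r = -0.72 without 2 mice. Mest was higher in mice with higher fat cell markers by rho (0.87, exact permutation p = 0.0045, adjusted 0.045) and not by r (0.75, exact p = 0.024, adjusted 0.092).

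In quercetin mice, Sfrp5 was higher in mice with higher macrophage markers (r = 0.71, exact permutation p = 4.8e-04, adjusted 0.020), with rho = 0.87 (exact p = 0.0045, adjusted 0.045) and with r = 0.81 without 2 mice, replicate 3 among them. Mest passed by r (0.75, exact permutation p = 0.0055, adjusted 0.041) and not by rho (0.80, exact p = 0.014, adjusted 0.069), with r = 0.52 without 2 mice. Mest and Sfrp5 passed by neither, with r = 0.93 (exact permutation p = 0.0087, adjusted 0.058) and rho = 0.77 (exact p = 0.021, adjusted 0.099). The macrophage relations of Npr3 and Cav2 in control and quercetin mice did not pass, and whether a relation differed between diets was not tested.

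**Figure D4:**
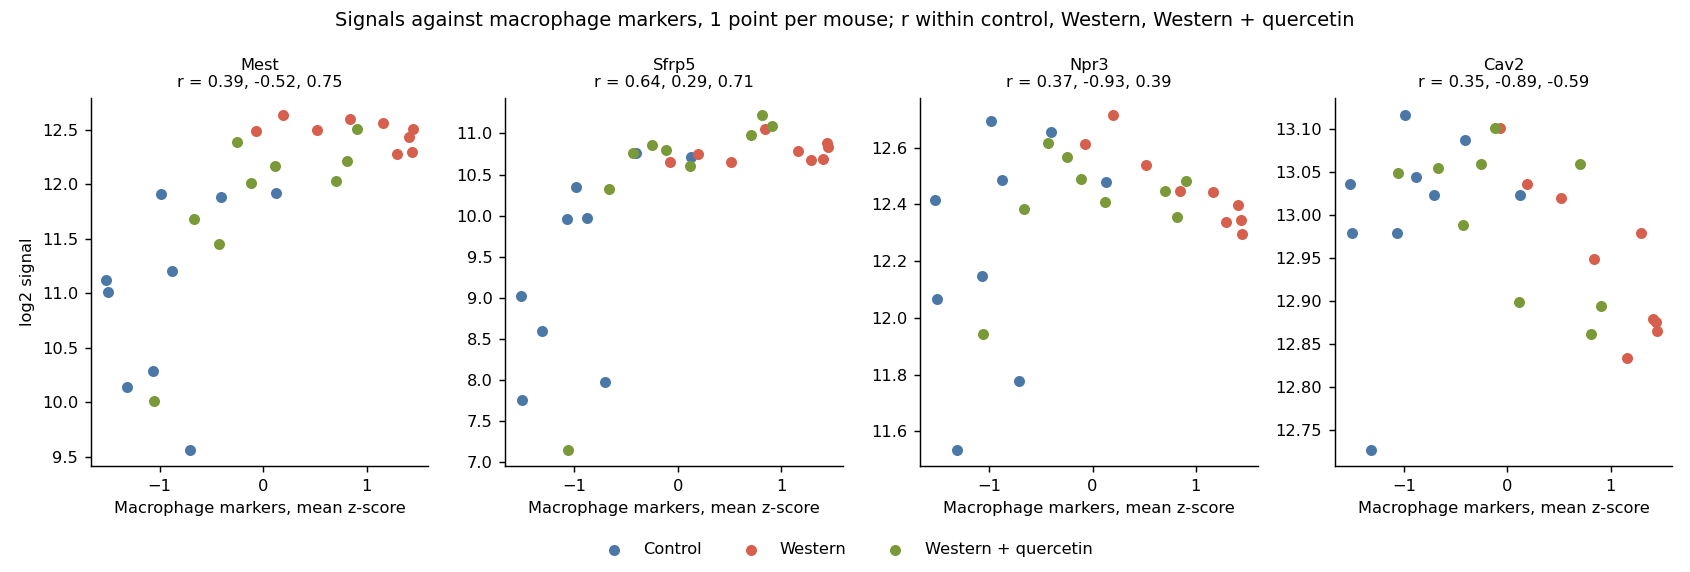
Log2 signal (y axis) of Mest, Sfrp5, Npr3 and Cav2 against the mean z-score of 12 macrophage markers (x axis), with 1 point per mouse coloured by diet and Pearson's r within control, Western and quercetin above each panel. In Western mice Npr3 and Cav2 fall as macrophage markers rise (r = -0.93 and -0.89), and with quercetin Mest and Sfrp5 rise (0.75 and 0.71).

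All 12 macrophage markers were higher in Western mice than in control mice (mean log2 signal 7.58 to 9.26 in control mice, 9.12 to 10.65 in Western mice and 7.95 to 10.14 with quercetin). Of 10 endothelial markers, Kdr, a receptor of vascular growth factors, was lower (-0.51, limma adjusted p = 0.021). Of 10 fat cell markers, Lep was higher and Slc2a4, the insulin-responsive glucose transporter, was lower (-0.70, limma adjusted p = 0.0019). Of 9 markers of fat cell progenitors and fibroblasts, 5 were higher, namely Pdgfra, Dpt, Mfap5, Col1a1 and Col3a1 (0.27 to 1.13). Of 8 smooth muscle markers, 2 were lower, namely Myh11 (-1.76, limma adjusted p = 0.022) and Cnn1 (-3.77, limma adjusted p = 0.021). Their mean log2 signal was 6.53 to 11.53 in control mice, 6.33 to 7.63 in Western mice and 6.37 to 8.02 with quercetin. Of 7 mesothelial markers, Krt19 was lower (-3.61, limma adjusted p = 0.0060), and their mean was 5.53 to 7.90, 2.78 to 6.34 and 3.35 to 6.59 in the same order of diets. Of 7 liver markers, Cyp2e1 was lower (-1.33, limma adjusted p = 7.5e-04) and 0 were higher. Cyp2e1 was bright on every array (10.7 to 13.5), and the list as a whole went the other way, with a median log2 difference of 1.69. None of the 6 lymph node and 9 testis and epididymis markers passed. Over all genes 11.3% were higher and 6.44% lower. These single markers were named after their values were seen. The part of these cells in the values of Mest, Sfrp5 and the caveolins was not tested.

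Caveolae hold other proteins beside the caveolins. Of 10 measured caveola genes, 1 was lower and 0 were higher in Western mice, a share not far from that of all genes (6.44% lower and 11.3% higher), with a median log2 difference of 0.04 against 0.00 over all genes. The lower gene was Pacsin3, which encodes a membrane-bending protein (-0.71, limma adjusted p = 0.026), and it passed in 11 of 14 alternative settings and in 21 of 27 fits with 1 array left out. With the actin covariate Pacsin3 gave -0.22 (limma adjusted p = 0.56), and without the arrays high in liver or in mesothelial markers it gave -0.75 and -0.57 (adjusted p = 0.15 and 0.13). Cavin3, a coat protein of caveolae, gave 0.37 (limma adjusted p = 0.16), Ehd2, an ATPase at the caveola neck, gave -0.19 (adjusted p = 0.23) and Cav3, the muscle caveolin, gave 0.80 at low signals (adjusted p = 0.35). With quercetin against the Western diet 0 of 10 passed, and Cavin2, which helps bend the caveola membrane, gave 0.18 (limma adjusted p = 0.16).

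Of 33 Wnt ligands, receptors and inhibitors, 3 were higher (9.09%) and 1 lower (3.03%) in Western mice, below the 11.3% and 6.44% of all genes, with a median log2 difference of 0.13. Sfrp4, a relative of Sfrp5, rose from 7.34 ± 0.46 to 8.07 ± 0.26 (SD, n = 9), a log2 change of 0.73 (limma adjusted p = 0.0013), and it was also higher with quercetin than in control mice (0.52, limma adjusted p = 0.041). Fzd1, a Wnt receptor, rose (0.32, limma adjusted p = 0.022), and Tcf7l2, a transcription factor at the end of the pathway, fell by 0.40 on the log2 scale (limma adjusted p = 0.037). The call held in 14 of 14 alternative settings and 27 of 27 fits with 1 array left out for Sfrp4, in 11 and 26 for Fzd1, and in 9 and 16 for Tcf7l2. Fzd1 lost it without normalisation (limma adjusted p = 0.097), with the methods' test (adjusted p = 0.13), without the 8 arrays high in testis, lymph node or smooth muscle markers (0.21, limma adjusted p = 0.25) and without those high in liver markers (0.35, adjusted p = 0.12). With the actin covariate Tcf7l2 gave -0.17 (limma adjusted p = 0.50). It also lost the call without the arrays high in liver markers (-0.33, limma adjusted p = 0.32) and without those high in mesothelial markers (-0.33, adjusted p = 0.12). Without all 16 arrays Tcf7l2 passed (-0.56, limma adjusted p = 0.015) and Fzd1 did not (0.30, adjusted p = 0.24). Against the Western diet quercetin changed 0 of 33, and Dkk3, of the Dickkopf family, gave -0.87 (limma adjusted p = 0.12) while Fzd7, a Wnt receptor, gave -0.35 (adjusted p = 0.27).

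Of 10 natriuretic peptide genes, 1 was lower and 0 were higher in Western mice, against 6.44% and 11.3% of all genes. Corin, the protease that cleaves the precursor of atrial natriuretic peptide, gave -2.85 (limma adjusted p = 0.014), but its signals were low (mean log2 3.84 in control mice and 0.99 in Western mice, where 4 of 9 mice were at the floor), and with a floor of 32 it gave -0.30 (limma adjusted p = 0.40). Without the 8 arrays high in testis, lymph node or smooth muscle markers it gave -1.52 and did not pass (limma adjusted p = 0.30), and without all 16 arrays it gave 0.49 (adjusted p = 0.87). Npr2, the guanylyl cyclase receptor for C-type natriuretic peptide, gave -0.24 for the Western diet (limma adjusted p = 0.28), Furin, a proprotein protease, gave 0.15 (adjusted p = 0.23) and Prkg2, a cGMP-dependent kinase, gave -0.47 (adjusted p = 0.26).

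In the family of Bmp3, 29 BMP ligands, receptors, mediators and inhibitors were measured, of which 1 was higher and 3 were lower in Western mice, 13.8% in all against 17.7% of all genes. Bmp1, which despite its name is a protease of procollagen, rose (0.50, limma adjusted p = 0.0056). Bmp6 and Bmp2, both BMP ligands, fell by 0.58 and 0.58 on the log2 scale (limma adjusted p = 0.013 and 0.034), and Smad4, the shared mediator, fell by 0.27 (adjusted p = 0.042). With 1 array left out, Bmp1 and Bmp6 passed in all 27 fits, Bmp2 in 20 and Smad4 in 14. With the actin covariate none of the 4 passed: Bmp1 gave 0.47 (limma adjusted p = 0.055), Bmp6 -0.27 (adjusted p = 0.33), Bmp2 -0.45 (adjusted p = 0.23) and Smad4 -0.17 (adjusted p = 0.35). Of the 14 alternative settings, Bmp6 passed in 13, Bmp1 in 12, Bmp2 in 9 and Smad4 in 8, and Bmp1 gave 0.36 on the mean of all its probe sets (limma adjusted p = 0.32). Without the arrays high in liver markers Bmp6 gave -0.53 (limma adjusted p = 0.16). Bmp2 was also lower with quercetin than in control mice (-0.78, limma adjusted p = 0.014). Quercetin against the Western diet gave 0.58 for Bmp6 (limma adjusted p = 0.094) and -0.34 for Bmp1 (adjusted p = 0.19), and 0 of 29 passed.

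Mest was read beside 14 other measured imprinted growth genes. Of all 15, 2 were higher (13.3%) and 3 were lower (20%) in Western mice, against 11.3% and 6.44% of all genes. Peg3, a zinc finger protein also expressed from the paternal copy, rose from 8.86 ± 0.34 to 10.02 ± 0.52 (SD, n = 9), by 1.16 (limma adjusted p = 0.0035). Plagl1, a zinc finger protein of growth control, fell by 0.82 (limma adjusted p = 6.2e-04), Cdkn1c, an inhibitor of the cell cycle, fell by 0.67 (adjusted p = 0.0028) and Igf2, a growth factor, fell by 0.54 (adjusted p = 0.026), all on the log2 scale. With 1 array left out, Igf2 passed in 22 of 27 fits and the others in all 27. With the actin covariate Cdkn1c gave -0.43 (limma adjusted p = 0.11) and Igf2 -0.33 (adjusted p = 0.32), and neither passed. Igf2 passed in 9 of 14 alternative settings, and lost the call also with the methods' test (adjusted p = 0.079), with the 2 diets alone (limma adjusted p = 0.054), on the mean of its probe sets (-0.77, limma adjusted p = 0.072) and without the 8 arrays high in testis, lymph node or smooth muscle markers (limma adjusted p = 0.074). Peg3 lost it without the arrays high in liver markers (1.12, limma adjusted p = 0.071). Plagl1 and Cdkn1c were also lower with quercetin than in control mice (-0.69 and -0.64, limma adjusted p = 0.011 and 0.014), and 0 of 15 passed for quercetin against the Western diet, where Igf2 gave 0.40 (limma adjusted p = 0.27).

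Genes most like each member over the 27 arrays, with diet means removed, were taken among genes above the median mean. For Mest these were Slc48a1, a haem transporter (r = 0.92), Wfdc21 (0.92), Anxa2, an annexin (0.91), and Ptchd4 (0.90). For Sfrp5 they were Prelp, a matrix proteoglycan (0.95), Lep, which encodes leptin (0.91), Fgf13 (0.90) and Ctsd, a lysosomal protease (0.88). For Npr3 they were Srpx2 (0.92), Cd59a, a complement inhibitor (0.90), Tspan17 (0.89) and Sncg, which encodes gamma-synuclein (0.88). For Cav1 they were Pon2 (0.83), Pter (0.80), Lpgat1 (0.79) and Usp46 (0.76), and for Cav2 Lrrc39 (0.88), Chpt1 (0.86), Rbp4, a retinol carrier (0.84), and Mfsd8 (0.83). When arrays were shifted to one common median and quantiles were not used, 2 of the 4 for Mest and 3 of the 4 for Sfrp5 were again among the top 4, and 0 of 4 for Npr3, Cav1 and Cav2. The r of the 4 genes with Cav1 then was 0.50 to 0.64.

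Several of these genes also differed in Western mice. Slc48a1 and Wfdc21 were higher (0.65 and 1.46, limma adjusted p = 6.2e-04 and 7.8e-04), as were Lep (0.88, adjusted p = 0.014), Prelp (0.65, adjusted p = 0.011), Ctsd (0.64, adjusted p = 1.4e-05) and Srpx2 (0.91, adjusted p = 0.0014). With quercetin against the Western diet, Wfdc21 gave -0.60 (limma adjusted p = 0.36), Prelp -0.33 (adjusted p = 0.44) and Lep -0.29 (adjusted p = 0.68), none past the test.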

How the data were processed

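EAT RNA was read on Affymetrix mouse arrays, 1 per mouse. The authors deposited a linear signal intensity for each probe set, computed with Microarray Suite and GeneSpring, and its median differed between arrays. Probe sets were named from the platform annotation. Control probe sets (64) and probe sets listed for several genes (932) were left out, and each of 18193 genes was represented by its single-gene probe set with the highest mean over 27 arrays. Intensities were quantile normalised, given a floor of 1 and taken to log2. The tests used limma 3.58.1 (R 4.3.3), fitting 1 mean per diet with a variance trend, and the p-values were adjusted by Benjamini and Hochberg over all genes. No 2 arrays held identical values. The alternatives that left out arrays high in liver or mesothelial markers, or quercetin replicate 3 from the SD ratios, were chosen after seeing the data. Alternatives changed the normalisation, floor, filter, probe set, variance model, test, samples and covariates. Named genes were the members, in each list the 4 smallest p for Western minus control and the 2 smallest for quercetin minus Western, the 4 genes most like each member, and defining markers of the tissue. The members and lists were chosen with earlier results of these data known. The code was tested on simulated data, and Python 3.11.15 with matplotlib 3.10.9 made the figures. The number of arrays limits the precision.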

Additional observations from a re-analysis of the deposited data

Results flagged for a closer look

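In 6 of 15 groups of 9 mice, each group being 1 gene in 1 diet, a sample lay apart from the rest by Dixon's test at the 95% level. Chance gives about 1 in 20 for a single group. The groups shared mice and the genes were correlated, so the 6 of 15 cannot be set against that rate. Quercetin replicate 3 lay apart at the low end for 4 of the 5 genes: Mest had a log2 signal of 10.01 (next mouse 11.46), Sfrp5 7.15 (next 10.33), Npr3 11.95 (next 12.36) and Cav1 13.29 (next 13.41). This array was also among those high in testis markers. Western replicate 4 lay apart at the high end for Cav1, with 13.58 (next 13.48), and control replicate 4 at the low end for Cav2, with 12.73 (next 12.98). Western replicate 4 was high in liver markers and control replicate 4 in smooth muscle markers, and their part in these values was not tested.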

How the results depend on the processing

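The rise of Mest in Western over control mice passed in 14 of 14 alternative settings (1.33 to 1.63) and in all 27 fits that left out 1 array (1.29 to 1.59). That of Sfrp5 passed in 9 of 14 settings and in 21 of 27 such fits (1.11 to 1.48). It lost the call without normalisation (1.34), with a floor of 32 and with the methods' test (1.32 in both), and with the actin ratio as a covariate (0.77). The replicate numbers did not pair the mice (10 of 27 pairs had r above 0.1), and in the fit with a replicate block Sfrp5 had 1.32 with a limma adjusted p of 0.058, while the block left 6 genes higher and 2 lower for quercetin minus Western. For quercetin minus control, Mest passed with the methods' test (0.82) and in 3 of the 27 fits with 1 array left out (range over all 27, 0.64 to 1.05), and Sfrp5 passed with array weights (1.18), without the 8 arrays high in testis, lymph node or smooth muscle markers (1.34) and without quercetin replicate 3 (0.75 to 1.38 over the 27 fits). In 3 further fits, chosen after seeing the data, Mest passed for Western minus control (0.96 to 1.46), and Sfrp5 lost the call for Western minus control without the 9 arrays high in liver markers (1.43) and without the 3 high in mesothelial markers (1.15), and passed for quercetin minus control without all 16 arrays high in any of these markers (1.24). The cause of these shifts was not tested.

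Differences that did not pass changed sign as follows. Cav1 for Western minus control had -0.069 without normalisation, -0.0028 with array weights, -0.0080 with the actin covariate, -0.0099 without the 8 arrays, and -0.0091 to 0.019 with 1 array left out. Cav2 had 0.069 for Western minus control, -0.038 for quercetin minus Western and 0.030 for quercetin minus control after a median shift, 0.048 for the last without normalisation, and -0.040 to 0.011 for the last with 1 array left out. For quercetin minus Western, Npr3 had 0.011 without normalisation, 0.0050 with array weights, 0.011 without the 8 arrays and -0.074 to 0.010 with 1 array left out. In the same comparison Cav1 had 0.061 without normalisation, and Sfrp5 had 0.24 with the actin covariate, 0.078 without the 8 arrays and -0.45 to 0.056 with 1 array left out. Cav1 for quercetin minus control had -0.025 to 0.0032 with 1 array left out. Without all 16 arrays Npr3 had -0.15 for Western minus control, 0.090 for quercetin minus Western and -0.059 for quercetin minus control, and Sfrp5 had 0.070 for quercetin minus Western.

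Counts over all genes depended more on the setting. For Western minus control (2047 higher, 1172 lower by limma), they were 1108 and 709 without normalisation, 1346 and 650 with the methods' test and 1130 and 408 with the actin covariate, with 581 lower after a median shift, 1943 lower with array weights, and 3228 and 1868 over probe sets. Of the calls, 63.6% were higher with quantiles, 61.0% without normalisation and 80.0% after a median shift. With 1 array left out, 921 to 1880 were lower. For quercetin minus Western (46 higher, 14 lower), they were 3 and 0 without normalisation, 0 and 3 after a median shift, 135 and 65 among genes above the median mean, 766 and 615 with array weights, 474 and 530 with the methods' test, 486 and 286 with the 2 diets alone, and 18 and 4 without the 8 arrays. The lower count was 26 with a floor of 32, 29 with a pseudocount of 16 and 23 over probe sets. Both counts were 0 with limma on the mean of all probe sets (956 and 1148 at an unadjusted p under 0.05), without a trend (1265 and 1141) and with the actin covariate (596 and 650), and ran from 0 to 210 higher and 0 to 95 lower with 1 array left out. For quercetin minus control (910 higher, 301 lower), they were 268 and 38 without normalisation, 371 and 130 after a median shift, 348 and 89 with the 2 diets alone, 1394 and 620 over probe sets, and 545 to 1409 and 158 to 596 with 1 array left out, with 667 lower with array weights and 603 higher without the 8 arrays. Without the 9 arrays high in liver markers the higher and lower counts were 1131 and 441 for Western minus control, 0 and 0 for quercetin minus Western (limma, 1007 and 887 at an unadjusted p under 0.05) and 174 and 26 for quercetin minus control, without all 16 they were 1131 and 772, 2 and 0 (1232 and 955 unadjusted), and 476 and 241, and without the 3 high in mesothelial markers 123 were lower for quercetin minus control. Of the pathway genes for Western minus control, 1 Wnt gene was higher and 1 BMP gene lower without normalisation, and after a median shift 4 Wnt genes were higher, 0 lower, and 1 BMP gene lower. Signals near the floor, such as those of Corin, limit what can be read of dim genes.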
